A study of Mus musculus with 9 samples.

Results

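The integrated stress response genes described here are Atf3, Atf4, Atf5, Ddit3, Trib3, Chac1, Asns, Sesn2, Cebpb and Nupr1. They were found by symbol among the 53679 Ensembl gene IDs of the count table, where the 10 symbols matched 11 IDs. Ddit3 matched a second, short ID (ENSMUSG00000116429) with 0 to 2 counts per library, so the ID with the most counts was used for each symbol. All 10 genes passed the filter on low counts and are accounted for below. The integrated stress response starts when stress-activated kinases phosphorylate the translation initiation factor eIF2alpha. Bulk protein synthesis then slows, while the mRNA of the transcription factor ATF4 is translated more, and ATF4 switches on genes of amino acid supply, redox balance and, through CHOP, cell death. In activated T cells the pathway is known for sensing amino acid shortage and for supporting the growth that follows activation. Transcript counts do not show how much ATF4 protein was made.

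The libraries hold ribosome-depleted total RNA of C57BL/6 mouse CD8+ T cells after 3 days of activation in culture. The groups were untreated Tc22 cells, Tc0 cells with the agent coenzyme A (CoA, the acyl group carrier made from vitamin B5), and untreated Tc0 cells. By usage in the field, Tc22 cells are those polarised to make interleukin-22, and Tc0 cells are their unpolarised counterparts. Each of 3 mice, numbered 715, 725 and 728, gave 1 library of each group, so n = 3 per group. The protocol text names a vehicle for cultures without CoA, while the labels give no agent for Tc0 and Tc22 cells; the sources used here state neither the polarising conditions, nor the CoA dose, nor the age and sex of the mice.

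Gene counts per library summed to between 21841034 and 36254631. The Tc0 library of mouse 728 stood apart: the median absolute log2 difference between it and the Tc0 libraries of mice 715 and 725 was 0.52 and 0.44, while every other replicate pair stayed within 0.16 to 0.30. The CD8 T cell markers Cd3e, Cd3d, Cd8a and Cd8b1 summed to 1292 to 1573 CPM (a gene's count relative to the TMM-scaled total of its library) in Tc22, 1149 to 1461 CPM in Tc0 with CoA and 1372 to 1695 CPM in Tc0 libraries. The 4 basophil and mast cell markers summed to 0.272 to 1.24 CPM in Tc22, 1.67 to 4.23 CPM with CoA and 0.409 to 1.12 CPM in Tc0. The 5 macrophage and monocyte markers summed to 6.19 to 7.13 CPM in Tc22, 4.97 to 14.0 CPM with CoA and 4.50 to 6.53 CPM in Tc0. The 4 dendritic cell markers summed to 4.36 to 5.85 CPM in Tc22, 5.46 to 9.37 CPM with CoA and 3.73 to 5.005 CPM in Tc0. Trdc, a gamma delta T cell transcript, stood at 78.0 to 162 CPM in the 9 libraries, and with Sox13 it summed to 118 to 144 CPM in Tc22, 78.2 to 110 CPM in Tc0 with CoA and 123 to 162 CPM in Tc0 libraries. The 3 natural killer markers summed to 0.782 to 1.27 CPM in Tc22, 0.133 to 0.607 with CoA and 0.496 to 0.818 in Tc0. CD4 and regulatory T cell markers summed to 12.6 to 15.7 CPM in Tc22, 8.57 to 14.1 with CoA and 7.23 to 13.9 in Tc0. The 3 erythroid markers summed to 0.340 CPM or less in every library. The part of these cell types in the results below was not tested. In such bulk samples, fewer cells with a transcript and less of it per cell cannot be told apart.

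Per kilobase of exon, Atf4 and the asparagine synthetase gene Asns were by far the most abundant of the 10 transcripts. Over the 9 libraries the level averaged 125 CPM per kilobase for Atf4 and 84.1 for Asns. A middle group followed with 11.6 CPM per kilobase for Trib3, 8.71 for Ddit3, 6.57 for Sesn2 and 6.51 for Atf3. Cebpb (3.53), Chac1 (1.85), Atf5 (1.68) and Nupr1 (0.768 CPM per kilobase) were scarce. Trib3 and Ddit3, and Ddit3 and Sesn2, overlapped within Tc0 libraries: Trib3 spanned 7.61 to 18.3, Ddit3 6.29 to 13.1, and Sesn2 3.30 to 6.85 CPM per kilobase. Nupr1 rested on 14 to 92 counts per library and Chac1 on 38 to 130, so their values carry counting error besides the spread shown.

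The promoters of the genes are shown first. Whether their motifs have a part in the changes described below was not tested. The binding site of ATF4 with C/EBP partners is the C/EBP-ATF response element, searched as TGATGNAA on both strands. It lay within 250 bases before the RefSeq start used for Atf3, Asns, Nupr1 and Chac1. That is 4 of 11 promoter stretches of the 10 genes (Atf5 has a pair of them). For Atf3 and Nupr1 the start used lies inside the gene span given below, far from its upstream end at 191218039 and 126630861. Those ends were not searched. Of all 32851 stretches of 250 bases in the RefSeq table, 3.45% held the element. The members were chosen as genes of this pathway, so setting them beside that share is a description and no test. The element in Asns differed from the others in its bases, TGATGAAA, and lay closest to the start, from position -23 to -16. That of Atf3 and that of Nupr1 both began at -110, and that of Chac1 at -193. An ATF/CREB element, searched as TNACGTCA, was found in Atf3 alone of the members, at -10, and in 2.52% of all stretches. These 2 motifs did not overlap in Atf3. Trib3 held a match to TGATGNAA after its start, at 15 to 22, and Ddit3, Sesn2, Atf4, Atf5 and Cebpb held none in these windows. Bases outside the windows were not searched. The 250 bases before the start follow for the promoters with a match in them and for Ddit3, a member without one. They are from RefSeq (GRCm38.p6), written 5′ to 3′ on the gene's strand, with matches to either motif in capitals. Atf3, chr1:191183334-191183583, minus strand. Asns, chr6:7693210-7693459, minus strand. Nupr1, chr7:126625471-126625720, minus strand. Chac1, chr2:119350992-119351241, plus strand. Ddit3, chr10:127290543-127290792, plus strand.
Atf3: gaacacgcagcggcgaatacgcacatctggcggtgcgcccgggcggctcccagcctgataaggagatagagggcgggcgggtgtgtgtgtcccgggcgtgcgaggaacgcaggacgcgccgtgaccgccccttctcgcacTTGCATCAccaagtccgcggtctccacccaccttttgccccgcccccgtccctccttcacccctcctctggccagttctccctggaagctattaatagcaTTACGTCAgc
Asns: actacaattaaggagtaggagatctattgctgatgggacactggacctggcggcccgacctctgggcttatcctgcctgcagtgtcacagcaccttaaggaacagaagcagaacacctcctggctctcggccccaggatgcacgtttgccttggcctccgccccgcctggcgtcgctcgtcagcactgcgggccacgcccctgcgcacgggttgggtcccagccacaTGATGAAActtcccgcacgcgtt
Nupr1: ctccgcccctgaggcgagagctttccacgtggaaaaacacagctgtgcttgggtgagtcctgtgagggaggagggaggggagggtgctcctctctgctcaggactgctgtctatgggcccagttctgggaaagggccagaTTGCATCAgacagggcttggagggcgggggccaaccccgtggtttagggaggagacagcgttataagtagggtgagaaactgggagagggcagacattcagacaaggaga
Chac1: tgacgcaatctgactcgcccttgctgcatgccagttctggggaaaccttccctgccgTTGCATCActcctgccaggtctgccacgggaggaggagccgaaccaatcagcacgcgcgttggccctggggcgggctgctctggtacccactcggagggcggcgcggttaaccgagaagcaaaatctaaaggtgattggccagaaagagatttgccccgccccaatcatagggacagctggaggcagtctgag
Ddit3: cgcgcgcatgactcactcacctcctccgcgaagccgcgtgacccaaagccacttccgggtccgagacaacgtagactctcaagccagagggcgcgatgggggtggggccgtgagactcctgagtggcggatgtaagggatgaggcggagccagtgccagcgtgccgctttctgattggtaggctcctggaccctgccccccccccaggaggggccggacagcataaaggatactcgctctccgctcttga

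CoA-treated Tc0 cells were set against untreated ones to ask what the cofactor does to transcripts during activation. With CoA, Atf4, Atf3, Asns, Sesn2 and Nupr1 rose and Ddit3 fell, by edgeR's quasi-likelihood test with mouse as a block and an adjusted p under 0.05. That is 6 of 10 genes called, against 24.5% of the 15348 genes tested. The 5 that rose stand against 12.5% of genes called higher, and the 1 that fell against 12.0% called lower. The median log2 fold change of the 10 was 0.60, and that of all genes tested was -0.01. CPM of 4 of the 10 genes did not overlap between the groups, against 27.8% of all genes. The calls depended on single libraries: leaving out the untreated Tc0 library of mouse 725, edgeR called 3 of the 10, leaving out the CoA library of mouse 728 also 3, that of mouse 725 4, and with no mouse block 2.

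**Figure D1:**
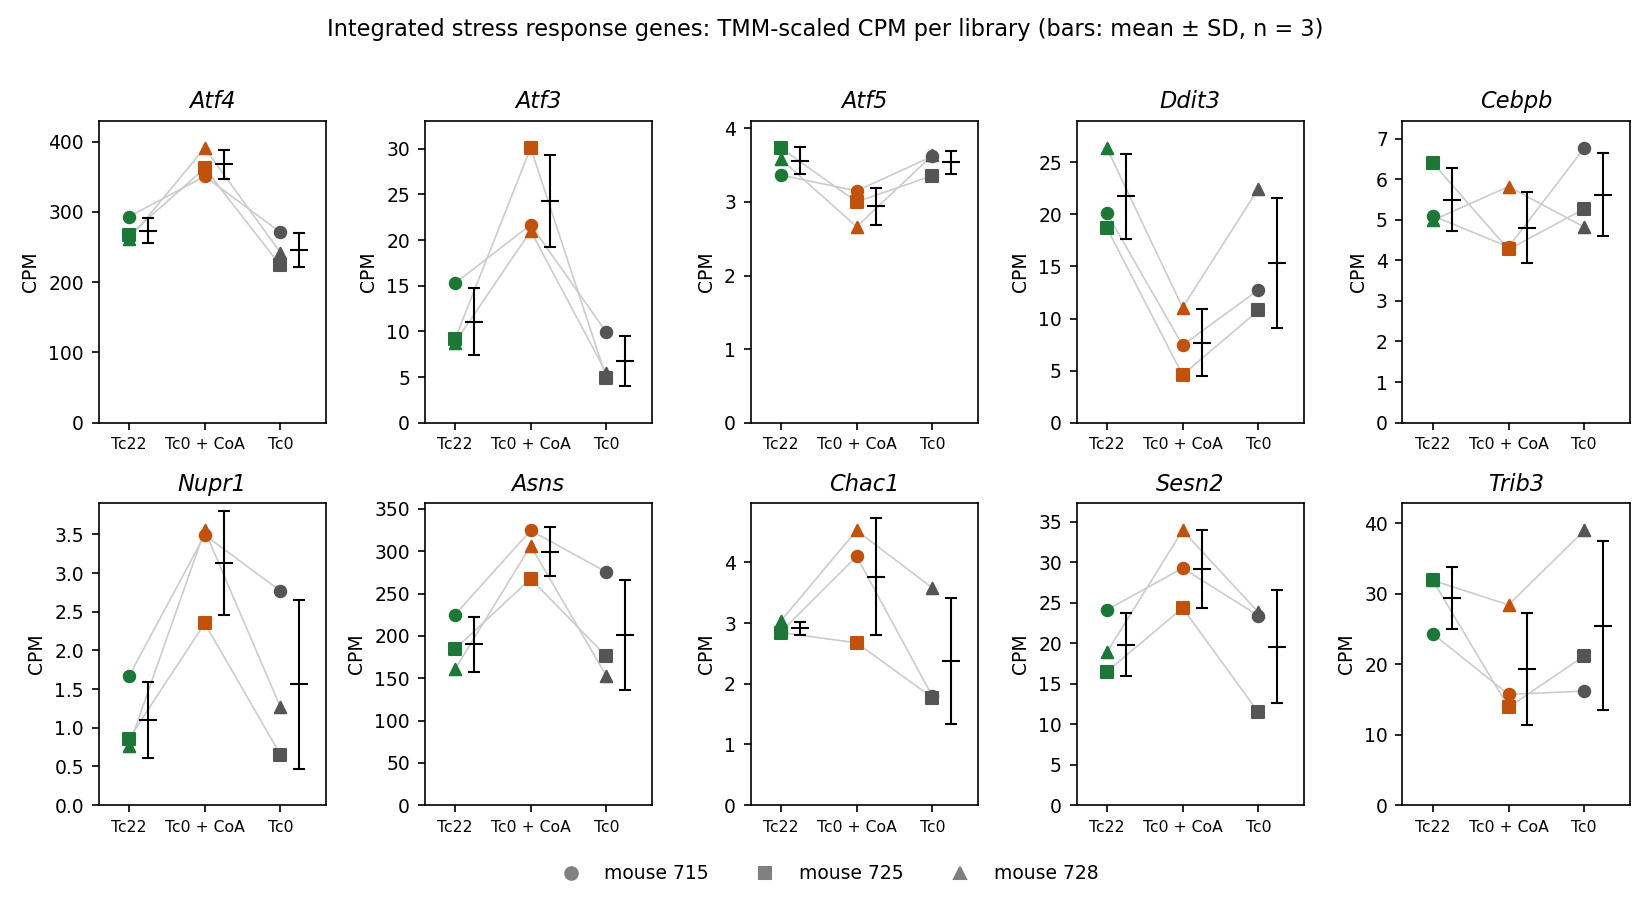
TMM-scaled CPM (y axis, linear from 0) of the 10 genes in every library, by group; grey lines join libraries of the same mouse, and bars give the mean ± SD of 3 libraries. Atf4 and Atf3 were higher in every Tc0 library with CoA than in any other library, and Ddit3 was lower in every Tc0 library with CoA than in any Tc22 library.

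Among the transcription factors, Atf4, the central activator of the pathway (ENSMUSG00000042406, chromosome 15, 80255184 to 80257541, plus strand, GRCm38), had 351, 362 and 391 CPM in Tc0 cells with CoA of mice 715, 725 and 728, against 271, 224 and 242 CPM in their Tc0 cells. All libraries with CoA lay above all without. The log2 fold change of Atf4 was 0.59 (SE 0.11, adjusted p = 0.00615, higher in 3 of 3 mice), a fold of 1.503. The call was lost without mouse 725 in every group (adjusted p = 0.0805) and held in the other 18 alternatives.

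Atf3, a bZIP factor induced by stress and by activation signals (ENSMUSG00000026628, chromosome 1, 191170296 to 191218039, minus strand), had 21.7, 30.1 and 20.99 CPM with CoA, against 9.88, 4.90 and 5.42 CPM in Tc0 cells. The groups did not overlap, and the lowest library with CoA stood far above the highest without. Its log2 fold change was 1.91 (SE 0.25, adjusted p = 0.00224), the largest of the 10 genes, and the call held in all 19 alternatives.

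Ddit3, which encodes CHOP, the factor that ties a lasting stress response to cell death (ENSMUSG00000025408, chromosome 10, 127290774 to 127296288, plus strand), went the other way. It had 7.44, 4.59 and 11.1 CPM with CoA, against 12.7, 10.8 and 22.5 CPM in Tc0 cells. The groups overlapped narrowly, since mouse 728 was high in both, but each mouse was lower with CoA. The log2 fold change was -1.001 (SE 0.17, adjusted p = 0.00529), and without the mouse block the adjusted p was 0.104. Summing the counts of both Ddit3 IDs left the call in place. Set against Atf4 in the same library, per kilobase of exon, the Ddit3 level was 2.92%, 1.75% and 3.89% of that of Atf4 with CoA, against 6.48%, 6.63% and 12.8% in Tc0 cells and 9.45%, 9.66% and 13.9% in Tc22 cells. In all 3 mice this share was lowest with CoA and highest in Tc22 cells.

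Nupr1, the gene of a small stress-induced nuclear protein (ENSMUSG00000030717, chromosome 7, 126623249 to 126630861, minus strand), had 3.49, 2.35 and 3.55 CPM with CoA, against 2.77, 0.653 and 1.27 CPM in Tc0 cells. The Tc0 library of mouse 715 lay above the library with CoA of mouse 725, so the groups overlapped. The log2 fold change was 1.13 (SE 0.31, adjusted p = 0.0271). The Nupr1 call did not hold with the block left out (adjusted p = 0.224), without the Tc0 library of mouse 725 (0.125) or 728 (0.0870), without the library with CoA of mouse 725 (0.0993) or 728 (0.152), and without all libraries of mouse 725 (0.157) or 728 (0.155).

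Atf5 and Cebpb did not pass. Atf5, a bZIP factor translated under stress in the same way as ATF4 (ENSMUSG00000038539, chromosome 7, 44812256 to 44816658, minus strand), had 3.15, 3.002 and 2.66 CPM with CoA, against 3.62, 3.36 and 3.63 CPM in Tc0 cells. Every library with CoA lay under every Tc0 library, yet the log2 fold change was small (-0.27, 95% interval -0.68 to 0.14, adjusted p = 0.313). Cebpb, a C/EBP factor that pairs with ATF4 and CHOP (ENSMUSG00000056501, chromosome 2, 167688915 to 167690418, plus strand), had 4.33, 4.27 and 5.81 CPM with CoA, against 6.77, 5.27 and 4.82 CPM in Tc0 cells. It was lower in 2 mice and higher in mouse 728 (-0.23, 95% interval -0.72 to 0.26, adjusted p = 0.485). Atf5 overlaps Nup62 and Il4i1, Cebpb overlaps Tmem189, and Ddit3 overlaps Mars and Gm4189, all on the opposite strand. The sources used here do not state whether counting used strand, so such genes may share reads.

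Of the effector genes of the pathway, Asns, which makes asparagine (ENSMUSG00000029752, chromosome 6, 7675169 to 7693254, minus strand), had 324, 267 and 306 CPM with CoA, against 275, 176 and 152 CPM in Tc0 cells. The Tc0 library of mouse 715 reached the range with CoA, while the other Tc0 libraries lay far under it. Its log2 fold change was 0.62 (SE 0.14, adjusted p = 0.0132). The Asns call did not hold with the block left out (adjusted p = 0.126), without the library with CoA of mouse 728 (0.0814), the Tc0 library of mouse 725 (0.0735), or all libraries of mouse 725 (0.0767) or 728 (0.0792). In mouse 715 the CPM ratio was 1.18, in mouse 725 1.52 and in mouse 728 2.01.

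Sesn2, the gene of the leucine sensor sestrin 2 that restrains mTORC1 (ENSMUSG00000028893, chromosome 4, 132492032 to 132510501, minus strand), had 29.3, 24.3 and 33.9 CPM with CoA, against 23.4, 11.5 and 23.8 CPM in Tc0 cells. The groups were separate, by a narrow margin. The log2 fold change was 0.62 (SE 0.18, adjusted p = 0.0294). The Sesn2 call did not hold with the block left out (adjusted p = 0.216), nor without the libraries with CoA of mouse 725 (0.133) or 728 (0.131), the Tc0 library of mouse 725 (0.154), or all libraries of mouse 725 (0.254) or 728 (0.0744).

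Chac1, whose product breaks down glutathione (ENSMUSG00000027313, chromosome 2, 119351229 to 119354381, plus strand), had 4.10, 2.68 and 4.53 CPM with CoA, against 1.79, 1.77 and 3.58 CPM in Tc0 cells. It was higher in 3 of 3 mice but did not pass (log2 fold change 0.68, 95% interval 0.13 to 1.23 before adjustment, adjusted p = 0.0701). Without the Tc0 library of mouse 728 it passed (0.97, adjusted p = 0.0299). Trib3, a pseudokinase gene that ATF4 and CHOP induce (ENSMUSG00000032715, chromosome 2, 152337422 to 152344032, minus strand), had 15.7, 13.9 and 28.4 CPM with CoA, against 16.2, 21.2 and 39.0 CPM in Tc0 cells. Trib3 was lower in all 3 mice, in mouse 715 by little, and did not pass (-0.37, 95% interval -0.82 to 0.08, adjusted p = 0.204). Mouse 728 was the highest of its group for Trib3 and Ddit3 both with and without CoA.

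**Figure D2:**
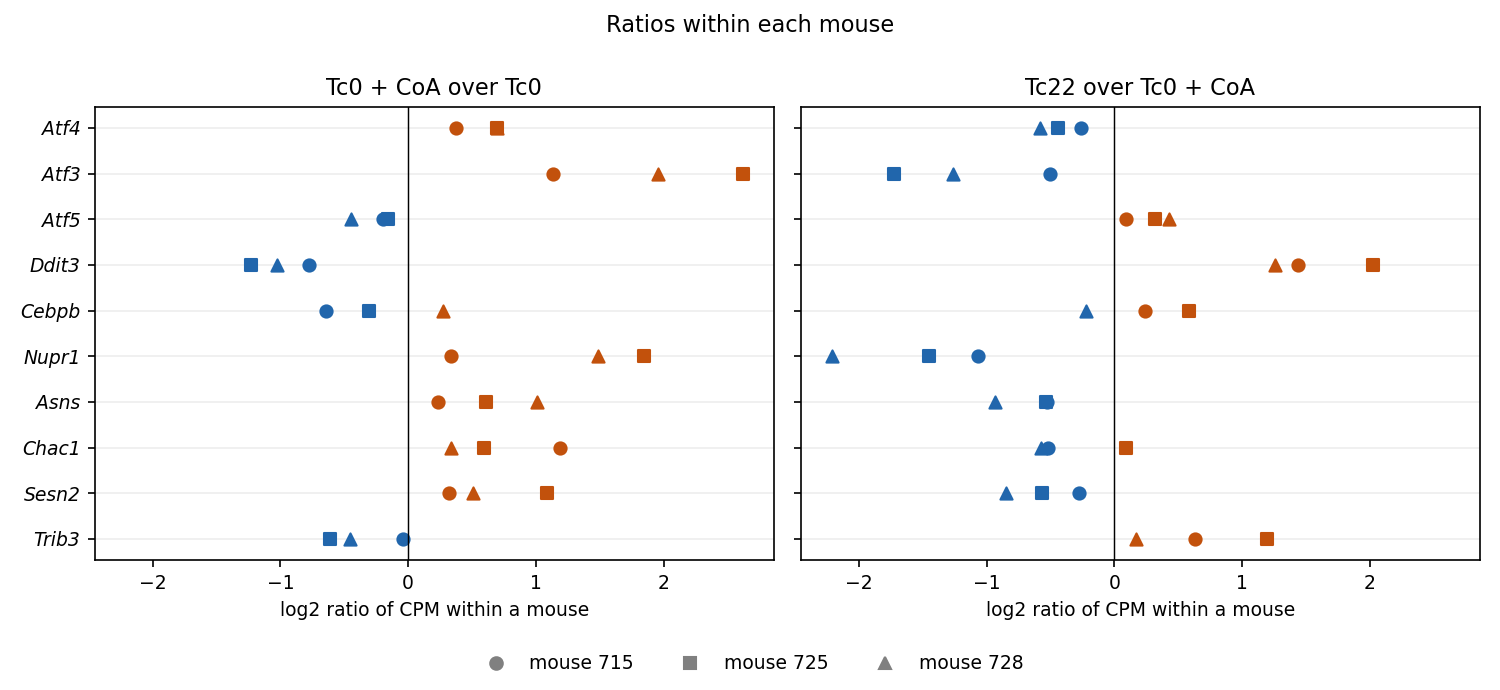
Log2 ratio of CPM within each mouse (x axis) for the 10 genes (y axis), for Tc0 with CoA over Tc0 on the left and Tc22 over Tc0 with CoA on the right; each symbol is 1 mouse. Atf4, Atf3, Asns, Sesn2, Nupr1 and Chac1 were higher with CoA in 3 of 3 mice and Ddit3, Trib3 and Atf5 lower in 3 of 3.

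Tc22 cells were set against Tc0 cells to ask how the interleukin-22 population differs. By edgeR, 0 of the 10 genes passed, against 3.68% of all genes (2.48% called higher and 1.21% lower). At an unadjusted p under 0.05 there were 2, Atf3 and Ddit3, and DESeq2 called the same 2. The median log2 fold change of the 10 was 0.11, against -0.01 for all genes. CPM of 0 of the 10 did not overlap between groups, against 12.5% of all genes.

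Atf3 had 15.3, 9.13 and 8.76 CPM in Tc22 cells of mice 715, 725 and 728, against 9.88, 4.90 and 5.42 CPM in their Tc0 cells. Each mouse was higher in Tc22 cells (log2 fold change 0.71, SE 0.25, adjusted p = 0.153). The adjusted p of Atf3 was under the threshold by DESeq2 (0.0479), without the low-count filter (0.0323), with the compared groups alone (0.0449) and with the CoA library of mouse 715 left out (0.0397). Ddit3 had 20.1, 18.7 and 26.4 CPM in Tc22 cells, against 12.7, 10.8 and 22.5 CPM in Tc0 cells, and was also higher in 3 of 3 mice (0.57, SE 0.17, adjusted p = 0.106). It was under the threshold by DESeq2 (0.0421) and without the Tc0 library of mouse 728 (0.0499).

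For the other genes the intervals bound the difference. Atf4 had 293, 266 and 261 CPM in Tc22 cells, against 271, 224 and 242 CPM in Tc0 cells (log2 fold change 0.16, 95% interval -0.08 to 0.40, adjusted p = 0.408). Asns (-0.06, -0.37 to 0.25), Sesn2 (0.06, -0.33 to 0.45), Atf5 (0.01, -0.39 to 0.41) and Cebpb (-0.03, -0.51 to 0.45) had intervals on both sides of 0, and the mice differed in direction for each of them. Trib3 had 24.3, 31.9 and 31.9 CPM in Tc22 cells, against 16.2, 21.2 and 39.0 CPM in Tc0 cells, so mouse 728 went against the other mice (0.31, -0.14 to 0.75). Chac1 stood at 2.86, 2.84 and 3.04 CPM in Tc22 cells, the tightest group among its values (0.35, -0.21 to 0.90). Nupr1 was lower in mice 715 and 728 and higher in mouse 725 (-0.44, -1.18 to 0.29).

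**Figure D3:**
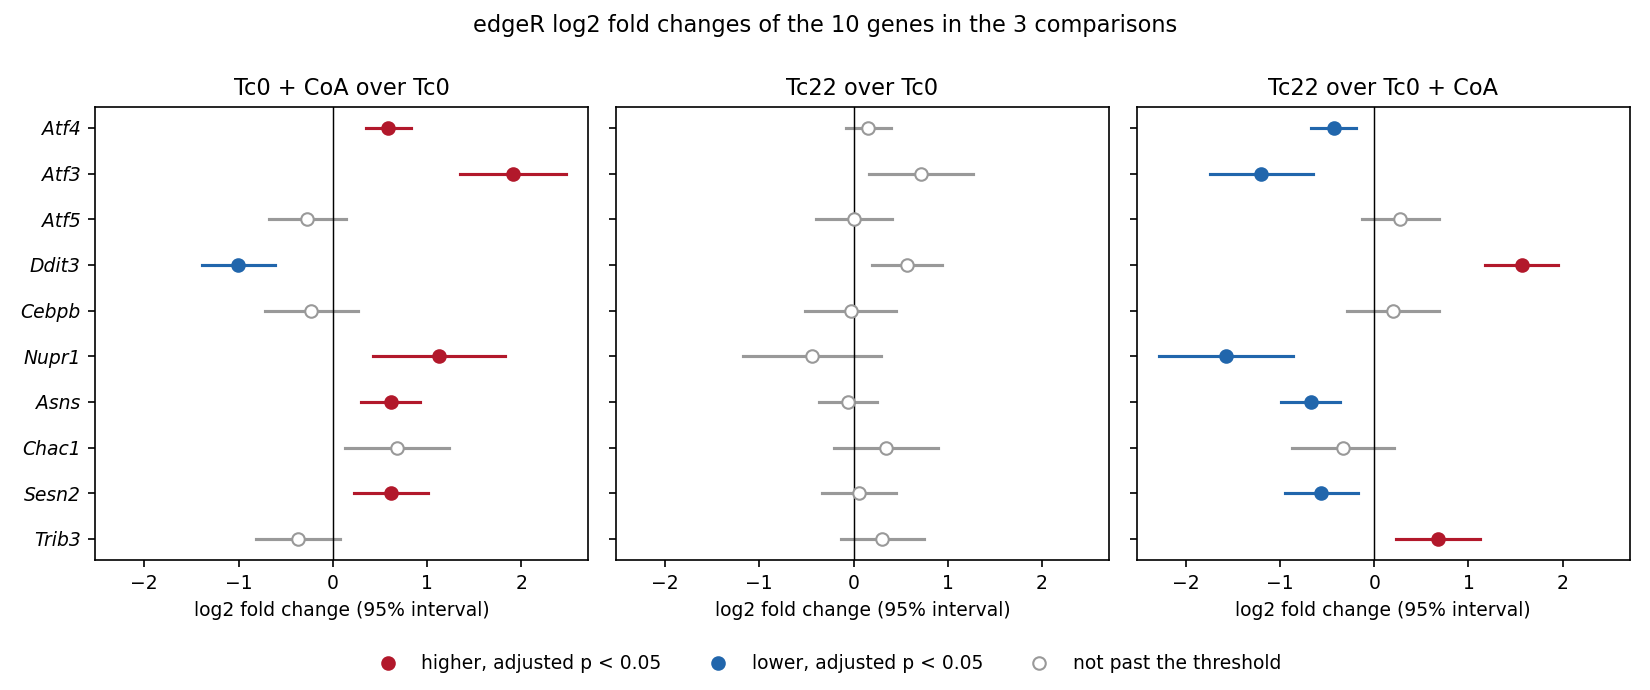
Log2 fold change (x axis) of the 10 genes (y axis) with its 95% interval before adjustment, in the 3 comparisons; filled points passed an adjusted p of 0.05 by edgeR. Tc0 with CoA over Tc0 had 5 genes higher and 1 lower, Tc22 over Tc0 had 0 past the threshold, and Tc22 over Tc0 with CoA had 2 higher and 5 lower.

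Tc22 cells were then set directly against Tc0 cells with CoA. These libraries also serve in the comparisons above, so the values are not independent of them. In Tc22 cells Ddit3 and Trib3 rose and Atf3, Atf4, Asns, Sesn2 and Nupr1 fell. That is 7 of 10 genes called, against 32.0% of all genes, with 16.0% called higher and 16.0% called lower. The median log2 fold change of the 10 was -0.38, against 0.01 for all genes. CPM of 7 of the 10 did not overlap, against 41.9% of all genes. With the CoA library of mouse 725 or 728 left out 4 were called, with the Tc22 library of mouse 715 or 725 left out also 4, without the Tc22 library of mouse 728 it was 5, and without the mouse block 3.

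Ddit3 had 20.1, 18.7 and 26.4 CPM in Tc22 cells of mice 715, 725 and 728, against 7.44, 4.59 and 11.1 CPM in their Tc0 cells with CoA. The lowest Tc22 library stood well above the highest with CoA. The log2 fold change was 1.57 (SE 0.17, adjusted p = 0.000516), and the call held in all 19 alternatives. Trib3 had 24.3, 31.9 and 31.9 CPM in Tc22 cells, against 15.7, 13.9 and 28.4 CPM with CoA, with overlap through mouse 728. Its log2 fold change was 0.68 (SE 0.20, adjusted p = 0.0286). The Trib3 call was lost without the block (0.276), the libraries with CoA of mouse 725 (0.149) or 728 (0.0648), the Tc22 libraries of mouse 715 (0.105) or 725 (0.166), or all libraries of mouse 715 (0.0638) or 725 (0.251).

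Nupr1 had 1.67, 0.859 and 0.767 CPM in Tc22 cells, against 3.49, 2.35 and 3.55 CPM in Tc0 cells with CoA. It fell by 1.57 on the log2 scale (SE 0.32, adjusted p = 0.00578), and the call was lost without the block (0.0695) or mouse 728 (0.0719). Atf3 fell by 1.20 (SE 0.24, adjusted p = 0.00587), to 15.3, 9.13 and 8.76 CPM in Tc22 cells, against 21.7, 30.1 and 20.99 CPM with CoA, and was lost without mouse 728 (0.0683). These 2 genes had no overlap between the groups.

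Asns had 225, 184 and 160 CPM in Tc22 cells, against 324, 267 and 306 CPM with CoA (log2 fold change -0.67, SE 0.14, adjusted p = 0.00635, lost without the block at 0.0731). Atf4 had 293, 266 and 261 CPM in Tc22 cells, against 351, 362 and 391 CPM with CoA (-0.43, SE 0.11, adjusted p = 0.0138). The Atf4 call was lost without the library with CoA of mouse 725 (0.0683) or 728 (0.103), any Tc22 library (0.0521 to 0.0635), or all libraries of mouse 725 (0.117) or 728 (0.0775). Sesn2 had 24.1, 16.5 and 18.9 CPM in Tc22 cells, against 29.3, 24.3 and 33.9 CPM with CoA (-0.56, SE 0.17, adjusted p = 0.0349). The Sesn2 call was the least stable, lost without the block, without the library with CoA of mouse 725 or 728, without any Tc22 library and without any mouse (0.0517 to 0.202). Atf5 (0.28, 95% interval -0.13 to 0.68), Cebpb (0.20, -0.29 to 0.69) and Chac1 (-0.34, -0.88 to 0.20) did not pass.

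The wider pathway was described by lists of genes, beginning upstream. The list counts stand beside the shares of all genes called. These were 12.5% higher and 12.0% lower for CoA over Tc0, and 2.48% higher and 1.21% lower for Tc22 over Tc0. For Tc22 over Tc0 with CoA they were 16.0% higher and 16.0% lower. Of 10 measured eIF2alpha kinases, phosphatase subunits and their regulators, 1 rose and 0 fell with CoA, with a median log2 fold change of 0.04. The one that rose was Gcn1l1, whose product activates the amino acid sensing kinase GCN2 (0.75, SE 0.21, adjusted p = 0.0292), at 122 ± 34.3 CPM with CoA and 77.3 ± 46.3 CPM in Tc0 cells (mean ± SD, n = 3). Without the block its adjusted p was 0.265, and it was lost without the CoA library of mouse 725 (0.122) or 728 (0.0812) or the Tc0 library of mouse 715 (0.085) or 725 (0.148). In Tc22 cells edgeR called 0 of the 10 against Tc0 (2 at an unadjusted p under 0.05, 0 by DESeq2), though 2 higher and 1 lower without the Tc0 library of mouse 728. Ppp1r15b had the smallest p there (-0.31, SE 0.10, adjusted p = 0.122). Against Tc0 with CoA 0 rose and 1 fell in Tc22 cells: Ppp1r15b, a subunit of the phosphatase that resets eIF2alpha, had 190 ± 22.5 CPM in Tc22 cells and 232 ± 19.9 CPM with CoA (-0.29, SE 0.10, adjusted p = 0.0461, lost without any single library but the Tc0 library of mouse 728, at 0.0519 to 0.244).

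The next list held subunits of eIF2, the target of the kinases, and of eIF2B, the exchange factor that phosphorylated eIF2 blocks. Of 8 measured, 6 rose and 0 fell with CoA, against 12.5% of all genes called higher, with a median log2 fold change of 0.47. Eif2s2 (0.23, adjusted p = 0.252) and Eif2b2 (0.22, adjusted p = 0.357) did not pass. Eif2b1 had 73.5 ± 13.0 CPM with CoA and 47.6 ± 1.26 CPM in Tc0 cells (0.61, SE 0.11, adjusted p = 0.00615). Eif2b5 had 152 ± 15.1 CPM with CoA and 111 ± 14.6 CPM in Tc0 cells (0.45, SE 0.11, adjusted p = 0.0146), and that call was lost without the CoA library of mouse 725 (0.0701) or 728 (0.086) or the Tc0 library of mouse 725 (0.1). Only 1 of the 8 was called without the Tc0 library of mouse 725, the libraries with CoA of mouse 725 or 728, or the block, and 3 without the Tc0 library of mouse 728. In Tc22 cells edgeR called 0 against Tc0 (1 at an unadjusted p under 0.05, 0 by DESeq2), and against Tc0 with CoA 0 rose and 4 fell, among them Eif2b1 (-0.66, SE 0.11, adjusted p = 0.00269) and Eif2b3 (-0.73, SE 0.16, adjusted p = 0.00842, lost without Tc22 of mouse 725 at 0.0548 or the CoA library of mouse 728 at 0.0628). The smallest p of the list for Tc22 over Tc0 was that of Eif2b2 (0.45, SE 0.17, adjusted p = 0.17). That count of 4 was 1 without the Tc22 library of mouse 725 or the library with CoA of mouse 728, 2 without that with CoA of mouse 725, and 7 without the Tc0 library of mouse 728.

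Aminoacyl-tRNA synthetases that ATF4 induces charge tRNAs with amino acids. Of 12 measured, 9 rose and 0 fell with CoA, against 12.5% of all genes called higher. Their median log2 fold change was 0.56. Lars, for leucine, had 360 ± 13.6 CPM with CoA and 226 ± 47.1 CPM in Tc0 cells (0.69, SE 0.12, adjusted p = 0.00520). Cars, for cysteine, had 109 ± 5.75 CPM with CoA and 73.8 ± 7.02 CPM in Tc0 cells (0.57, SE 0.10, adjusted p = 0.00663, and 0.051 without the CoA library of mouse 728). Between 2 and 10 rose when any 1 library was left out, with 2 without the Tc0 library of mouse 725 or that with CoA of mouse 728 and 5 without that with CoA of mouse 725. In Tc22 cells edgeR called 0 against Tc0 (1 at an unadjusted p under 0.05, 0 by DESeq2), and against Tc0 with CoA 0 rose and 9 fell, with Lars at -0.70 (SE 0.12, adjusted p = 0.00274) and Tars, for threonine, at -0.63 (SE 0.13, adjusted p = 0.00583). Sars, for serine, had the smallest p of the list for Tc22 over Tc0 (0.39, SE 0.12, adjusted p = 0.125). The count of 9 that fell stood against 16.0% of all genes called lower. It was 3 or 4 without any Tc22 library or the libraries with CoA of mouse 725 or 728. Of 8 genes of serine, one-carbon and proline synthesis, 4 rose and 0 fell with CoA (median 0.44), against 12.5% of all genes called higher. Psph, the last step of serine synthesis, had 76.6 ± 10.8 CPM with CoA and 42.9 ± 6.08 CPM in Tc0 cells (0.84, SE 0.14, adjusted p = 0.00467). Mthfd2, a mitochondrial folate enzyme, had 250 ± 12.8 CPM with CoA and 177 ± 40.6 CPM in Tc0 cells (0.52, SE 0.13, adjusted p = 0.0172), a call lost without the CoA library of mouse 725 (0.0811) or 728 (0.113) or the Tc0 library of mouse 725 (0.113). For this list 1 rose without the Tc0 library of mouse 725 or that with CoA of mouse 725 or 728. In Tc22 cells against Tc0 with CoA, 1 of the 8 rose and 3 fell, where 16.0% of all genes were called each way. Those that fell included Psph (-0.75, SE 0.14, adjusted p = 0.00391) and Mthfd2 (-0.52, SE 0.13, adjusted p = 0.013). The Mthfd2 call was lost without either of those CoA libraries (0.0637 and 0.0945) or the Tc22 library of mouse 728 (0.0592). Against Tc0, edgeR called 0 of the 8 in Tc22 cells (1 at an unadjusted p under 0.05, Mthfd1l at 0.28, SE 0.11, adjusted p = 0.182, and 0 by DESeq2).

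Of 18 other measured ATF4 or CHOP targets, 5 rose and 4 fell with CoA, against 12.5% of all genes called higher and 12.0% lower. Their median log2 fold change was 0.17. With untreated Tc0 of mouse 725 left out 3 rose and 1 fell, with the CoA library of mouse 725 left out 4 and 1, with that of mouse 728 left out 3 and 3, with untreated Tc0 of mouse 728 left out 4 and 2, and with no block 3 and 0. The 2 with the smallest p both serve cysteine supply. Slc7a11, the cystine importer, had 8.62 ± 1.05 CPM with CoA and 1.996 ± 0.729 CPM in Tc0 cells (2.17, SE 0.22, adjusted p = 0.000716). Cth, which makes cysteine from cystathionine, had 56.7 ± 10.4 CPM with CoA and 12.9 ± 12.8 CPM in Tc0 cells (2.57, SE 0.37, adjusted p = 0.00271, 0.0694 without the block). In Tc22 cells Slc7a11 stood at 2.39 ± 0.581 CPM and Cth at 11.2 ± 7.39 CPM, and both were lower than with CoA (-1.87, SE 0.21, adjusted p = 0.000570 for Slc7a11, and -2.59, SE 0.36, adjusted p = 0.00127 for Cth). Of this list 6 rose and 8 fell in Tc22 cells against Tc0 with CoA, where 16.0% of all genes were called each way. In Tc22 cells against Tc0 1 rose and 0 fell, where 2.48% of all genes were called higher and 1.21% lower. Against Tc0 with CoA, 3 rose and 5 fell with Tc22 of mouse 715 or 725 or the CoA library of mouse 725 left out, 4 and 5 with the CoA library of mouse 728 left out, and 6 and 5 with Tc22 of mouse 728 left out. Against Tc0, 2 rose and 1 fell with the CoA library of mouse 725 left out. The one that rose against Tc0 was Eif4ebp1, an inhibitor of translation initiation (0.59, SE 0.14, adjusted p = 0.0488), whose call did not survive leaving out untreated Tc0 of mouse 715 (0.191) or 725 (0.238), Tc22 of mouse 715 (0.175) or 725 (0.292), or the CoA library of mouse 728 (0.087). It was also lost with library size scaling (0.0568), with the compared groups alone (0.0616) and with no block (0.577).

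**Figure D4:**
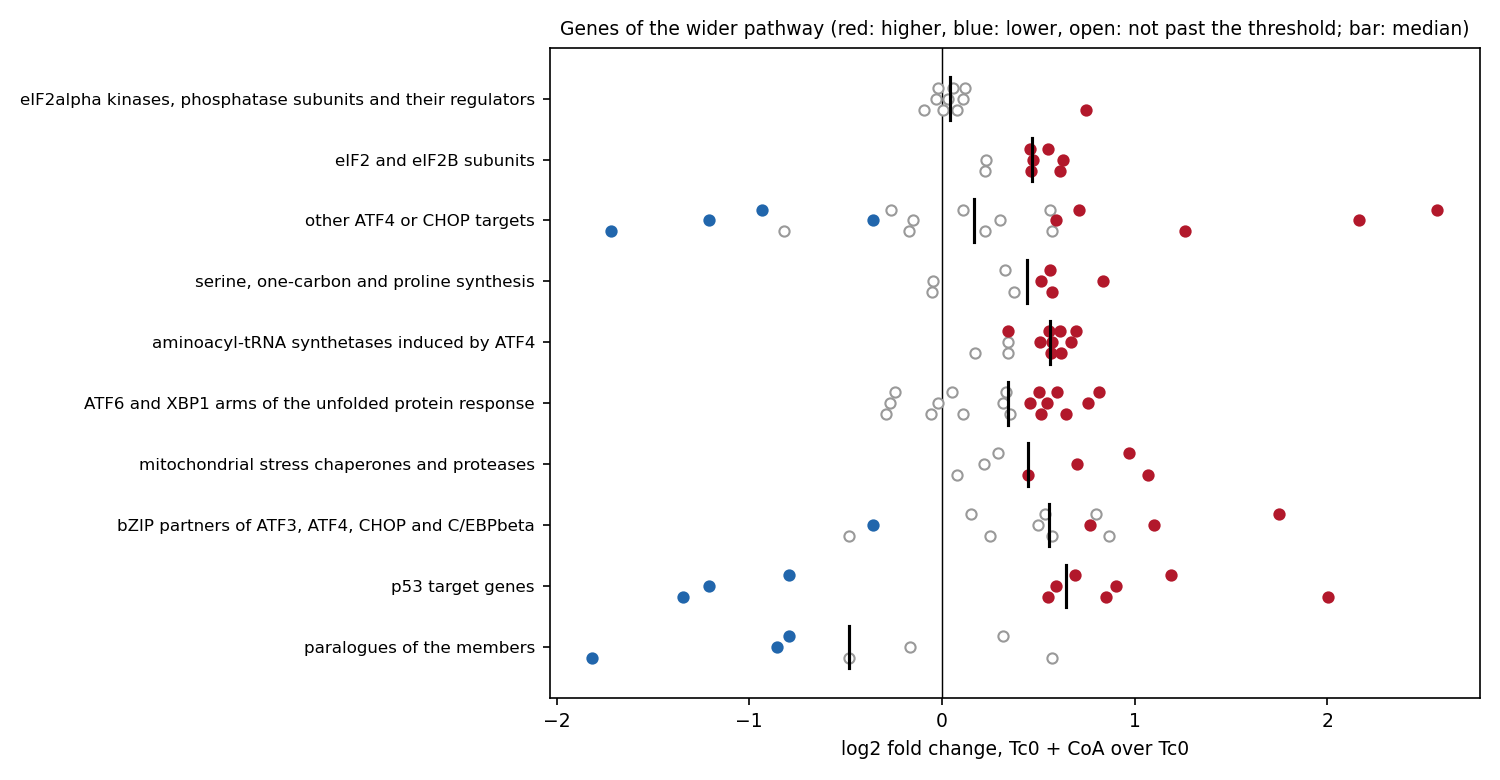
Log2 fold change of Tc0 with CoA over Tc0 (x axis) for every measured gene of 10 lists (y axis); red and blue points passed an adjusted p of 0.05 by edgeR as higher and lower, open points did not, and bars mark the median of each list. The tRNA synthetases ranged from 0.17 (Sars) to 0.69 (Lars), with a median of 0.56. Genes past the threshold lay on both sides of 0 in the other ATF4 or CHOP targets, the bZIP partners and the p53 target genes.

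Chaperone programmes of other compartments were measured beside them. Their counts stand against 12.5% of all genes called higher with CoA. In Tc22 cells against Tc0 with CoA, 16.0% of all genes were called each way. Of 18 genes of the ATF6 and XBP1 arms of the unfolded protein response of the endoplasmic reticulum, 8 rose and 0 fell with CoA (median 0.34). Calr, a calcium-binding chaperone, had 678 ± 116 CPM with CoA and 398 ± 19.9 CPM in Tc0 cells (0.76, SE 0.11, adjusted p = 0.00265). Hyou1, another chaperone, had 189 ± 34.2 CPM with CoA and 107 ± 16.8 CPM in Tc0 cells (0.82, SE 0.16, adjusted p = 0.00853, and 0.0532 without the Tc0 library of mouse 725). In this list 1 rose without the Tc0 library of mouse 725, and 2 or 3 without the library with CoA of mouse 725 or 728. Of 7 mitochondrial chaperones and proteases, 4 rose and 0 fell with CoA (median 0.45, 1 without the Tc0 library of mouse 725 or that with CoA of mouse 728, and 2 without that of mouse 725). Hspd1, the mitochondrial chaperonin, had 1965 ± 333 CPM with CoA and 1035 ± 349 CPM in Tc0 cells (0.97, SE 0.16, adjusted p = 0.00467). In Tc22 cells Hspd1 stood at 837 ± 163 CPM, lower than with CoA (-1.25, SE 0.16, adjusted p = 0.000987). Its partner Hspe1 had 221 ± 33.3 CPM in Tc22, 442 ± 53.1 CPM in Tc0 with CoA and 280 ± 87.5 CPM in Tc0 cells. Hspe1 rose with CoA (0.70, SE 0.15, adjusted p = 0.0096, lost without the CoA library of mouse 728 at 0.0565 or the Tc0 library of mouse 725 at 0.0581) and fell in Tc22 cells against Tc0 with CoA (-1.01, SE 0.15, adjusted p = 0.00144). In that comparison 0 of the 7 mitochondrial genes rose and 3 fell, and of the 18 genes of the endoplasmic reticulum 1 rose and 8 fell, among them Dnajb11 (-0.55, SE 0.09, adjusted p = 0.00262) and Calr (-0.59, SE 0.11, adjusted p = 0.00342). Of those 8, 2 fell when Tc22 of mouse 725 or the CoA library of mouse 725 or 728 was left out. Against Tc0, Tc22 cells had 1 of the 18 higher, Atf6 itself (0.59, SE 0.13, adjusted p = 0.0343, lost without untreated Tc0 of mouse 715 at 0.121 or 725 at 0.173, the Tc22 library of mouse 725 at 0.214 or 728 at 0.0842, or the CoA library of mouse 728 at 0.0513). Of the 7 mitochondrial genes edgeR called 0 in that comparison (1 at an unadjusted p under 0.05, Lonp1 at 0.59, SE 0.15, adjusted p = 0.0734, and 1 by DESeq2).

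Of 12 measured bZIP factors that can pair with ATF3, ATF4, CHOP or C/EBPbeta, 3 rose and 1 fell with CoA (median 0.55), against 24.5% of all genes called, and 8 did not pass. Leaving out any 1 library other than the Tc0 library of mouse 728, 0 of the 12 fell. In Tc22 against Tc0 cells 2 rose, 1 fell and 9 did not pass (median -0.06), against 2.48% of all genes called higher and 1.21% lower. There, 4 rose and 0 fell with untreated Tc0 of mouse 728 left out, 3 rose and 2 fell with the CoA library of mouse 725 left out, and 1 rose and 0 fell with untreated Tc0 of mouse 725 or Tc22 of mouse 715 or 725 left out. Batf3, a partner of JUN proteins in lymphocytes, was higher in both, with 16.5 ± 2.18 CPM in Tc22, 16.2 ± 4.99 CPM in Tc0 with CoA and 4.87 ± 1.85 CPM in Tc0 cells. Its log2 fold change was 1.78 (SE 0.28, adjusted p = 0.00852) for Tc22 and 1.75 (SE 0.28, adjusted p = 0.00431) for CoA, both against the same Tc0 libraries. Batf had 30.6 ± 5.29 CPM with CoA and 18.1 ± 4.77 CPM in Tc0 cells (0.77, SE 0.13, adjusted p = 0.00531). Jdp2, a repressor of the AP-1 family, had 3.21 ± 1.36 CPM in Tc22 cells and 9.63 ± 5.11 CPM in Tc0 cells with CoA (-1.58, SE 0.31, adjusted p = 0.00499). In that comparison 1 of the 12 rose and 7 fell, against 16.0% of all genes called each way. Of the 12, 2 fell without the CoA library of mouse 725, and without the block 0 rose and 1 fell. Fosb was among the 7 that fell in the main fit (-2.32, SE 0.34, adjusted p = 0.00154), at 0.273 ± 0.191 CPM in Tc22 cells and 1.34 ± 0.805 CPM with CoA. Fosl2, another AP-1 subunit, had 46.7 ± 13.6 CPM in Tc22 cells and 22.7 ± 11.7 CPM in Tc0 cells (1.12, SE 0.19, adjusted p = 0.0123), a call lost without the Tc22 library of mouse 715 (0.0517) or 725 (0.0782) or untreated Tc0 of mouse 725 (0.0653).

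Sesn2 and Atf3 are also known targets of p53, so p53 target genes were listed. Of 10 measured, 7 rose and 3 fell with CoA, against 12.5% of all genes called higher and 12.0% lower. Their median log2 fold change was 0.64. The 2 with the smallest p fell: Trp53inp1, at 232 ± 66.3 CPM with CoA and 584 ± 133 CPM in Tc0 cells (-1.35, SE 0.16, adjusted p = 0.00159), and Sesn1. Without the Tc0 library of mouse 725 0 rose and 3 fell, without the libraries with CoA of mouse 725 or 728 3 and 1 rose, and without the Tc0 library of mouse 728 3 rose and 2 fell. In Tc22 against Tc0 cells edgeR called 0 of the 10 (3 at an unadjusted p under 0.05, 1 by DESeq2), with Trp53inp1 at -0.57 (SE 0.16, adjusted p = 0.0871). Against Tc0 with CoA 2 rose and 6 fell in Tc22 cells, where 16.0% of all genes were called each way. Those that fell included Eda2r (-2.46, SE 0.42, adjusted p = 0.00271) and Zmat3 (-1.30, SE 0.25, adjusted p = 0.00432). With the CoA library of mouse 725 or 728 left out, 3 of the p53 list fell, and without the block 0 rose and 0 fell. The paralogues of Sesn2 did not follow it. Sesn1 had 29.9 ± 4.87 CPM with CoA and 51.9 ± 5.99 CPM in Tc0 cells (-0.79, SE 0.15, adjusted p = 0.00716), and Sesn3 had 124 ± 24.4 CPM with CoA and 226 ± 39.1 CPM in Tc0 cells (-0.86, SE 0.19, adjusted p = 0.0115, lost without the CoA library of mouse 728 at 0.057 or the Tc0 library of mouse 725 at 0.062). Of 7 measured paralogues of the 10 genes, 0 rose and 3 fell with CoA (median -0.48), against 12.0% of all genes called lower. Of these paralogues 1 fell without the Tc0 library of mouse 725 or that with CoA of mouse 728. Against Tc0 with CoA 2 of the 7 rose and 2 fell in Tc22 cells, where 16.0% of all genes were called each way. Sesn3 was among those that rose (0.94, SE 0.19, adjusted p = 0.00537). Against Tc0 edgeR called 0 in Tc22 cells (4 at an unadjusted p under 0.05, 2 by DESeq2), with Chac2, the paralogue of Chac1, at -0.59 (SE 0.15, adjusted p = 0.0658).

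Genes with the most similar profile were sought for Ddit3, Atf3 and Atf4, the 3 members with the smallest p over the 3 groups. Likeness was the mean absolute difference of log2 CPM, centred on each gene's mean, over the 9 libraries, among 9241 other genes at 5 CPM or more. For Atf4 the nearest gene was Cars, the synthetase above, at 0.02, followed by the cochaperone gene Stip1 at 0.03 and Pdia6 of the endoplasmic reticulum at 0.04, against a median of 0.30 over all genes compared. For Ddit3 the nearest were Pold4, a subunit of DNA polymerase delta, at 0.09, Rdm1 at 0.09 and the small GTPase gene Rras at 0.14 (median 0.68). Pold4 averaged 32.4 CPM in Tc22, 10.7 CPM in Tc0 with CoA and 21.8 CPM in Tc0 cells. For Atf3 they were the RNA-editing enzyme gene Adarb1 at 0.14, Mex3a at 0.14 and the myosin gene Myo10 at 0.16 (median 0.77). Adarb1 averaged 6.65 CPM in Tc22, 14.2 CPM in Tc0 with CoA and 4.80 CPM in Tc0 cells. The nearest genes lie under these medians by how they were picked, so the medians give a scale and no test.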

How the data were processed

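RNA was extracted with a Qiagen kit, 200 ng per sample was depleted of ribosomal RNA and made into stranded total RNA libraries, which were sequenced as paired ends of 100 cycles, per the labels' protocols. The authors deposited whole-number counts per Ensembl gene for 9 libraries, and the 9 single files were identical to the combined table. Tools listed in the submitters' processing notes are RSEM 1.3.0 and STAR 2.5.2, with mm10 and GRCm38 as builds. RSEM's estimates need not be whole, so the counts may have been rounded. Annotation release and strand setting: not given in the sources used here.

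Symbols matched 53565 IDs and not the other 114. Positions and exon lengths came from GENCODE M21 (GRCm38), promoters from RefSeq. Counts were TMM-scaled, filtered with filterByExpr (15348 genes) and fitted with edgeR 4.0.16 in R 4.3.3 (quasi-likelihood F test, group and mouse as terms, 4 residual degrees of freedom, biological coefficient of variation 0.158). P-values were Benjamini-Hochberg adjusted over all genes tested. Standard errors are the log2 fold change over the square root of F. Mouse was a block because, per the series design, every mouse supplied each population. The 9 same-mouse pairs of libraries had deviations from group means with r of 0.0699 to 0.617. Pairs from different mice were not set beside them, so these values cannot test the pairing. The libraries come from 3 animals. Alternatives were DESeq2 1.42.0, other scalings, no filter, no block, the compared groups alone and leaving out each library or mouse.

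The members and lists were chosen with earlier results of these data known. Named list genes are up to 2 per list and comparison with the smallest p past the threshold, or 1 where none passed; for the 3 members with the smallest p over the 3 groups, the 3 genes of the most similar profile were also named.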

Additional observations from a re-analysis of the deposited data

How the results depend on the processing

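Over 19 alternatives and 30 log2 fold changes of the 10 genes, 500 values kept direction and side of the threshold, 47 lost the call, 7 gained it and 16 changed sign. No sign change touched a called value. Over all 19 alternatives, Cebpb ranged from -0.49 to 0.0016 for CoA over Tc0, -0.21 to 0.19 for Tc22 over Tc0 and -0.0076 to 0.44 for Tc22 over CoA. For Tc22 over Tc0, Asns ranged from -0.18 to 0.11, Atf5 from -0.062 to 0.082 and Sesn2 from -0.14 to 0.26.

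Without the mouse block, 2 of the 10 genes were called for CoA over Tc0, 3 for Tc22 over CoA and 0 for Tc22 over Tc0, and 1462, 2097 and 120 of all genes, against 3763, 4913 and 565 with it. For Tc22 over Tc0, DESeq2 called 2 of the 10 and 953 genes, leaving out the low-count filter gave 1 and 1275, and the compared groups alone gave 1 of the 10. Leaving out 1 library or mouse gave 2 to 6 of the 10 and 810 to 4356 genes for CoA over Tc0, 0 to 1 and 201 to 2669 for Tc22 over Tc0, and 3 to 7 and 1848 to 5913 for Tc22 over CoA. Without the block the genes that rose with CoA numbered 1 of the eIF2 and eIF2B subunits, 8 of the tRNA synthetases, 4 of the endoplasmic reticulum list, 1 of the mitochondrial, 1 of the serine, 3 of the other target, 1 of the bZIP and 0 of the p53 list. Those that fell in Tc22 over CoA then numbered 1 of the eIF2 and eIF2B subunits, 4 of the synthetases and 3 of the endoplasmic reticulum list. They numbered 2 of the mitochondrial, 1 of the serine, 4 of the other target, 1 of the bZIP and 0 of the p53 list. The cause was not tested. No alternative moved the median of all genes by over 0.1. Among the 10 genes the lowest count behind a value was 14, for Nupr1. Summing the Ddit3 IDs and the list counts under other settings were added after seeing the data.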
